A study of Mus musculus with 2 samples.

Results

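The genes of the cytosolic ribosomal proteins were measured in CD8+ T cells that lack the transcription factor Bcl11b and in wild-type CD8+ T cells. Members were all probes that the array names Rpl or Rps followed by a number, or Rpsa, Rplp0, Rplp1 or Rplp2, without kinases of the Rps6k family and without names marked as pseudogenes. This gave 138 probes of 41174 and 83 genes of 27598, of which 50 carried a large subunit name and 33 a small subunit name. A filter on dim probes left 82 of the 83 among the 9955 genes tested, and the gene not kept was Rpl3l, the muscle paralog of Rpl3. The rule also took in 4 measured paralogs (Rpl22l1, Rpl36al, Rpl7l1 and Rps27l) and Rps19bp1, which encodes a binding partner of Rps19, so that 77 measured genes, 46 large and 31 small, were standard ribosomal proteins. All 82 genes were well above background in both colours on both arrays, and no spot of theirs was saturated.

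Every cytosolic ribosome is built from one copy of most of these proteins, together with ribosomal RNA. The small subunit reads the messenger RNA, and the large subunit joins the amino acids and carries a stalk of P proteins that recruits translation factors. Their messenger RNAs usually begin with a run of pyrimidines, the 5′ terminal oligopyrimidine (TOP) motif, through which mTOR signalling adjusts their translation, and Myc is known to raise ribosome production in dividing T cells. Effector CD8+ T cells, which divide fast during an infection, make many ribosomes.

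CD8+ T cells came from Bcl11bF/F/dLck-iCre mice, which carry floxed Bcl11b alleles and a Cre driven by the distal Lck promoter, active in T cells, and from wild-type mice. All mice had been infected with Listeria monocytogenes-OVA and were studied on day 6. Cells had been isolated by negative selection, with a purity of over 90% per the labels. There were 2 arrays, each pairing 1 deficient and 1 wild-type RNA that the labels call biological replicates. Deficient RNA was in the red colour (Cy5) and wild-type RNA in the green (Cy3) on both arrays, so that a dye effect cannot be told apart from the genotype. Each value below is a log2 ratio of deficient over wild type unless it is called a brightness, a signal or a share, and array 1 precedes array 2.

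Deficient RNA was well above background at 26.0% and 31.1% of gene spots and wild-type RNA at 32.4% and 28.9%. Bcl11b itself fell, with ratios of -0.69 and -2.95 and a mean of -1.82 ± 1.60 (SD, n = 2; limma adjusted p = 6.6e-04), and passed in 6 of 11 alternatives (adjusted p 1.4e-05 to 0.271). Of the T cell markers, Cd8a, Cd8b1, Cd3d and Cd3g were above background in both genotypes on both arrays, and 6 of 13 measured markers fell and none rose (limma, adjusted p under 0.05; 11 had an unadjusted p under 0.05). The summed normalized signal of the T cell markers was 153368 and 283760 in wild type and 86099 and 93674 in deficient samples. Markers of other cells moved the opposite way. All 17 measured macrophage markers rose, with a median ratio of 3.01, and their summed normalized signal was 29434 and 33443 in wild type and 230946 and 317483 in deficient samples. B cell markers rose for 5 of 7 (summed signal 37788 and 42670 in wild type, 93652 and 260178 in deficient), erythroid markers for 4 of 6 (106581 and 62153 against 236409 and 349741) and neutrophil markers for 3 of 8 (10488 and 13719 against 69941 and 67607). No measured macrophage, B cell, erythroid or neutrophil marker was at 0. The neutrophil markers Ngp, Retnlg, Ltf and Camp and the macrophage marker Fcgr1 were not clearly above background in every wild-type sample. They passed the filter on dim probes through the deficient samples, which favours high ratios, as Cd3e passed through wild type. With both colours required, 3 of 4 neutrophil and all 16 macrophage markers rose and 10 of 12 T cell markers fell. Ribosomal proteins are made by all of these cells, and the part of those cells in the values below was not tested. In these bulk samples fewer cells of a type and less RNA per cell cannot be told apart.

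The sequence around the start of transcription was searched for runs of pyrimidines and for the letters CCGGAAG. RefSeq promoters (build GRCm38.p6) were matched for 62 of the 83 genes, each 300 bases long, with 250 before the annotated start and 50 after. The 30 bases before and 20 after the start are given for 3 of the 4 genes called by the test and for 5 genes with a clear TOP-like run. Capitals mark a C followed by at least 4 pyrimidines that begins within 10 bases of the start.
Rpl37a, chr1:72711230-72711279, plus strand: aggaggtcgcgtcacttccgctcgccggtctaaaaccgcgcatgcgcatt
Rpsa, chr9:120127736-120127785, plus strand: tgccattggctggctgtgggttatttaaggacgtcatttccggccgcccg
Rpl4, chr9:64173357-64173406, plus strand: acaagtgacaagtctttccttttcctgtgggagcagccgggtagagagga
Rpl38, chr11:114668550-114668599, plus strand: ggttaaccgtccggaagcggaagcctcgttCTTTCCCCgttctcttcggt
Rps10, chr17:27635225-27635274, minus strand: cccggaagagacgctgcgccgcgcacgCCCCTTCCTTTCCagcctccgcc
Rps6, chr4:86857348-86857397, minus strand: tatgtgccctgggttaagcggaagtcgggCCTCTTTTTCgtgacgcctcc
Rplp2, chr7:141447621-141447670, plus strand: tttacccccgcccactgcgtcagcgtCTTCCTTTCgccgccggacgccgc
Rpl15, chr14:18270967-18271016, minus strand: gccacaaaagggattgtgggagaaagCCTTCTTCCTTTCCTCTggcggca

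In Rpl38 the run of 8 pyrimidines began exactly at the annotated start. Such a run lay at the start itself in 13 of the 62 genes (21.0%), against 3.01% of the 27025 genes in the table, and began within 10 bases in 37 (59.7%), against 34.4%. In the windows of Rpl37a, Rpsa and Rpl4 no such run began within 10 bases of the start, which describes letters alone. The window of Rpl4 did hold a run of pyrimidines that began further before the start and ended within those 10 bases. The letters CCGGAAG, on either strand, stood in 24 promoters (38.7%), against 9.93% of all, and are visible before the start of Rpl38 and Rps10. CCGGAAG and a run near the start occurred together in 18 promoters (29.0%) and in 3.87% of all genes. The reverse complement of CCGGAAG contains pyrimidines that can overlap such a run, and matches describe letters, not bound sites.

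Of the 82 measured genes, 3 fell and 1 rose (limma, adjusted p under 0.05 over all 9955 genes). Those lower made up 3.66% of the members, beside 5.94% of all genes tested, and those higher 1.22%, beside 3.65%. In either direction 4.88% of the members were called, beside 9.58% of all genes, and with median centring the order turned, with 9.76% of members beside 4.22% of all genes. The difference in shares was not tested. The lower genes were Rpsa, Rpl29 and Rpl4 and the higher gene was Rpl37a. A further 55 members had a mean ratio within 0.5 of 0. Because the estimated spread was the same for every gene, each mean carried a standard error of 0.42, and with 2 arrays no change under 1.18 was called in any gene. All 4 kept their sign in the 13 alternatives that give a value for single genes, median centring included.

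Rpsa encodes the small subunit protein also known as the laminin receptor precursor. Its probe (NM_011029, chr9:119977169-119977228, plus strand, array build NCBI36, mm8) gave scanned signals of 3224 in deficient and 17723 in wild-type cells on array 1, and 15888 and 19898 on array 2. Before dye normalization the deficient sample was thus the dimmer one on both arrays, by far more on array 1. A dimmer deficient signal on array 1 was not particular to low ratios. Rplp2, with a ratio of 0.80 there, also had it (116924 in deficient and 137692 in wild type), while Rpl37a did not. The normalized ratios of Rpsa were -1.94 and -0.77, with a mean of -1.35 ± 0.83 (SD, n = 2; limma adjusted p = 0.0197). It passed in 7 of the 11 alternatives with a test, whose adjusted p ran from 7.2e-04 to 0.269.

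Rpl29 encodes a small basic protein of the large subunit that also binds heparin, and is not essential in mice. Scanned signals at its brightest probe (NM_009082, chr9:106287739-106288421, plus strand, mm8) were 4425 and 24321 on array 1 and 19545 and 22805 on array 2, deficient first. The normalized ratios were -1.81 and -0.65, with a mean of -1.23 ± 0.82 (SD, n = 2; limma adjusted p = 0.0381). The other probes of Rpl29 averaged -0.93, -0.86 and -0.18, so that the size of the change depended on the probe while all means lay below 0. It passed in 5 of the 11 alternatives (adjusted p 0.00236 to 0.269).

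Rpl4 encodes a protein of the large subunit that reaches into the tunnel through which the new chain leaves. Its only probe (NM_024212, chr9:63972936-63972995, plus strand, mm8) gave signals of 1781 and 8837 on array 1 and 11330 and 9153 on array 2. On array 2 the scanned signal was higher in the deficient sample. The normalized ratios were -2.29 and -0.16, with a mean of -1.22 ± 1.51 (SD, n = 2; limma adjusted p = 0.0398). The call thus rested on array 1, and without it the ratio was -0.16. It passed in 5 of the 11 alternatives (adjusted p 0.00446 to 0.325).

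Rpl37a encodes a zinc-binding protein of the large subunit. Its probe (NM_009084, chr1:72646770-72646829, plus strand, mm8) was the brightest of all members, with a mean log2 brightness of 17.5, and gave signals of 293674 and 117418 on array 1 and 258405 and 129950 on array 2. The deficient sample was brighter on both arrays before any normalization. The normalized ratios were 2.38 and 0.66, with a mean of 1.52 ± 1.22 (SD, n = 2; limma adjusted p = 0.00641). It passed in 5 of the 11 alternatives (adjusted p 1.8e-04 to 0.637).

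**Figure D1:**
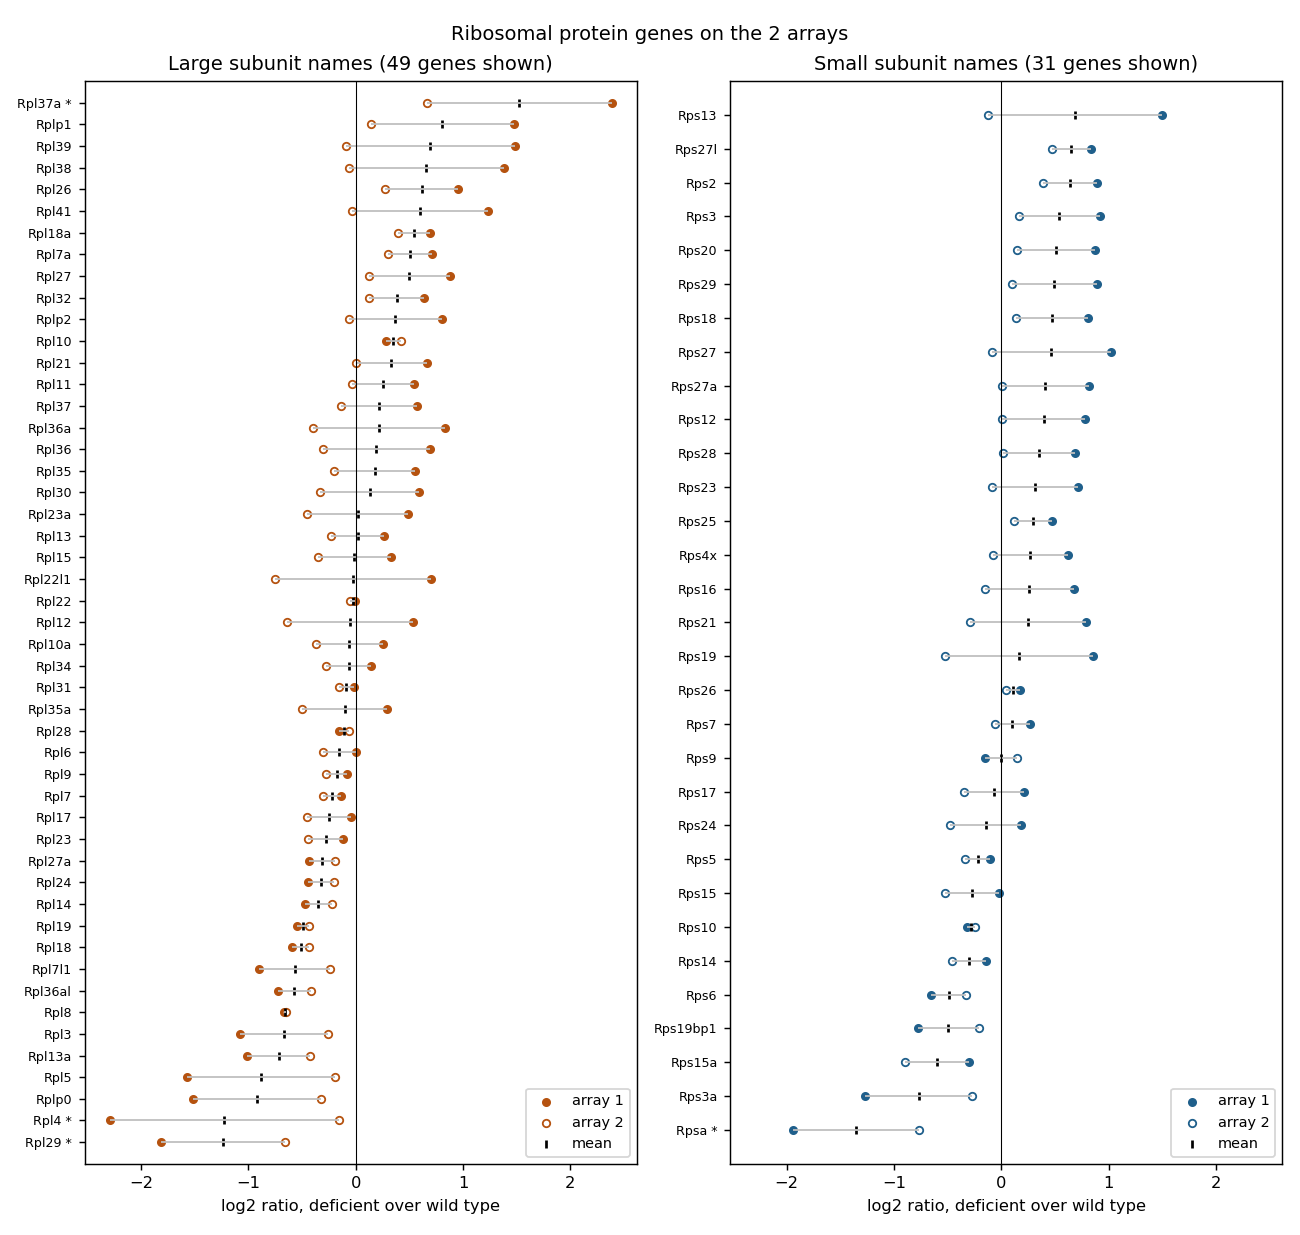
Log2 ratio of deficient over wild type (x axis) for 80 of the 82 measured genes (y axis, sorted by mean within each subunit), with array 1 as filled points, array 2 as open points and the mean as a tick; an asterisk marks the 4 genes with a limma adjusted p under 0.05. Array 1 values run from -2.29 to 2.38 and array 2 values from -0.90 to 0.66, and the zero line depends on the normalization, since median centring in place of loess puts 81 of the 82 means below 0.

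The arrays differed in how far the genes spread. On array 1 the ratios of the 82 genes ran from -2.29 to 2.38 with an SD across genes of 0.84, and on array 2 from -0.90 to 0.66 with an SD of 0.30. Over all genes tested the SDs were 0.96 and 0.65. On array 1, 50 of the 82 (61.0%) lay above 0, beside 41.5% of all genes, and on array 2 only 22 (26.8%), beside 49.6%. There were 29 genes above 0 on array 1 and below 0 on array 2 (35.4%, beside 8.94% of all genes), and 1, Rps9, with the opposite pattern. The sign was the same on both arrays for 52 members (63.4%) and for 74.0% of all genes. Across the 82 genes the ratios of the arrays had a Pearson correlation of 0.52 and a Spearman correlation of 0.55, a description over genes that share the same RNAs and dyes.

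As a family the genes sat close to the centre, and the sign of that centre depended on the array and on the scaling. The median of the 82 mean ratios was 0.01 with loess, 0.29 on array 1 and -0.20 on array 2, and it was -0.93 with median centring in place of loess (-1.26 and -0.47), -0.18 in the ratios of Feature Extraction and -0.10 when a gene's probes were averaged. The median of all genes was -0.12 (-0.22 and -0.01) with loess and -0.40 (-0.75 and -0.07) with median centring. The members' median minus that of all genes was 0.12 with loess and -0.53 with median centring. With median centring 81 of 82 means lay below 0, and 8 genes (9.76%, beside 3.53% of all genes) were called lower and 0 higher (limma). The 8 were Rpl13a, Rpl29, Rpl4, Rpl5, Rpl8, Rplp0, Rps3a and Rpsa. By limma 34 members then had an unadjusted p under 0.05, beside 1965 of all 9955 genes. With the loess curve drawn without ribosomal protein spots, an alternative chosen after seeing the data, the median was 0.04 (0.46 and -0.25) and the same 4 genes were called. Over all genes, 61.9% of the calls were lower with loess, 83.6% with median centring, 51.2% after centring on the genes tested and 38.5% without background correction.

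**Figure D2:**
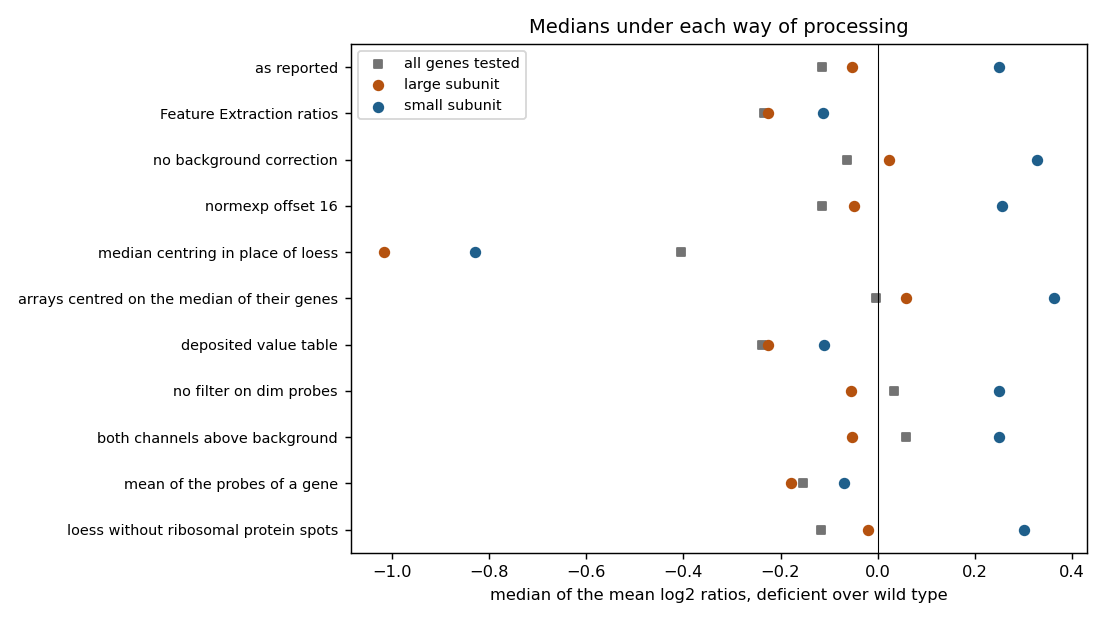
Median of the mean log2 ratios (x axis) of the large subunit (orange), small subunit (blue) and all genes tested (grey squares) under each way of processing (y axis). Loess places the small subunit at 0.25 and the large at -0.05, and median centring places them at -0.83 and -1.02, below the median of all genes at -0.40; the Feature Extraction ratios place them at -0.11 and -0.23.

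The share of all signal on an array that fell on these probes also depended on the processing. Members are 0.335% of the gene probes. With the local background subtracted and no dye normalization, they held 13.96% and 13.2% of the signal of all gene spots in wild-type cells and 7.04% and 9.55% in deficient cells. In the signals as processed by Feature Extraction the shares were 18.0% and 18.6% in wild type and 18.3% and 14.9% in deficient cells. The deficient share was lower on both arrays in the first case and on array 2 alone in the second. These shares are over probe signals, not molecules.

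Large subunit genes were set against small subunit genes, which addresses whether the subunits differ. The large subunit (49 measured genes) had medians of 0.27 and -0.23 on the arrays and -0.05 for the mean ratio. The small subunit (33 genes) had 0.62 and -0.09, and 0.25 for the mean ratio, which became -0.11 in the ratios of Feature Extraction and -0.07 when a gene's probes were averaged. The large subunit median was therefore below the small by 0.35 on array 1 and by 0.14 on array 2, and the difference of the medians of the mean ratios was -0.30. An exact two-sided sign-flip test over the 2 arrays gave p = 0.5, the smallest p it allows with 2 arrays, so this test could not have passed. The mean of the differences over the arrays was -0.24 ± 0.15 (SD, n = 2). With the standard ribosomal proteins alone the differences were -0.34 and -0.12. The difference was negative in 14 of 15 alternatives, from -0.35 to -0.11, and positive, 0.051, in the other, which kept genes of middle brightness alone. The 15 are not separate checks. Centring on the genes tested and the filter on both colours could not change the difference, which stayed at -0.30. The deposited table holds the Feature Extraction ratios again, and leaving out the filter added Rpl3l alone. Both medians moved below 0 with median centring.

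**Figure D3:**
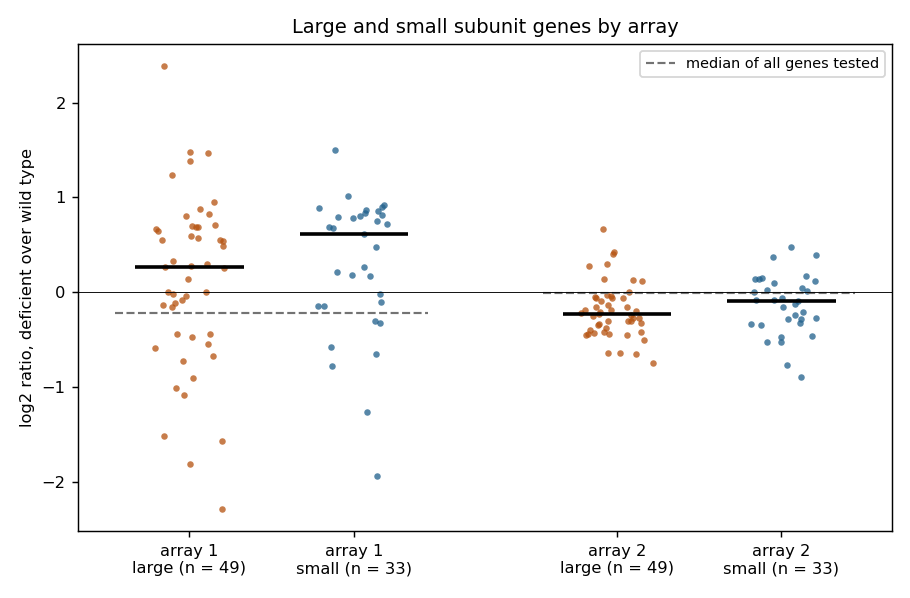
Log2 ratio of deficient over wild type (y axis) of each large (orange) and small (blue) subunit gene on each array (x axis, with points spread sideways for legibility), with loess normalization. Bars are medians, 0.27 and 0.62 on array 1 and -0.23 and -0.09 on array 2, and the dashed lines are the medians of all genes, -0.22 and -0.01; with median centring all 4 bars lie below 0, and with the Feature Extraction ratios all but the small subunit on array 1, at 0.04.

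Brightness differed between the subunits as well, and the ratio followed brightness. The median log2 brightness of the probes was 15.2 for the large subunit and 15.9 for the small one, against 9.60 for all genes tested, and 27 of the 50 brightest genes of the arrays were members. Across the 82 genes, ratio and brightness had a Spearman correlation of 0.63 on array 1 and 0.38 on array 2, as a description over genes of the same RNAs, and of 0.44 and 0.20 with median centring. The 10 genes at a log2 brightness of 17 or more had median ratios of 0.85 and 0.13, and the 16 genes between 12 and 14 had -0.23 and -0.33. The 10 other genes of at least 17 had 1.73 and 0.15, so that high ratios on array 1 were shared by the brightest genes outside the family.

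Within ranges of similar brightness the large subunit had the higher median mean ratio in 5 of 6 ranges, with limits below 12 and at 15 to 16. Below 12 the median mean ratio was -0.33 for 4 large subunit genes and -0.49 for 1 gene with a small subunit name. That gene was Rps19bp1, which is not a ribosomal protein, so this range compares no small subunit protein. Between 14 and 15 the median mean ratio was 0.05 for 6 large and -0.04 for 4 small. Between 12 and 14 the median mean ratio was -0.24 for 12 large and -0.38 for 4 small subunit genes, and between 15 and 16 it was -0.02 for 12 large and -0.15 for 9 small. On each array taken alone the order between 15 and 16 was the other way. The medians there were 0.16 and -0.38 for large and 0.18 and -0.24 for small subunit genes. Between 16 and 17 the median mean ratio was 0.02 for 9 large and 0.39 for 11 small, and at 17 or more 0.60 for 6 large and 0.48 for 4 small. Over the 31 genes at brightness 14 to 16 the difference of the medians turned to 0.051, and over the 51 genes at 14 to 17 it was -0.22. The part of brightness in the subunit difference was not tested further.

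**Figure D4:**
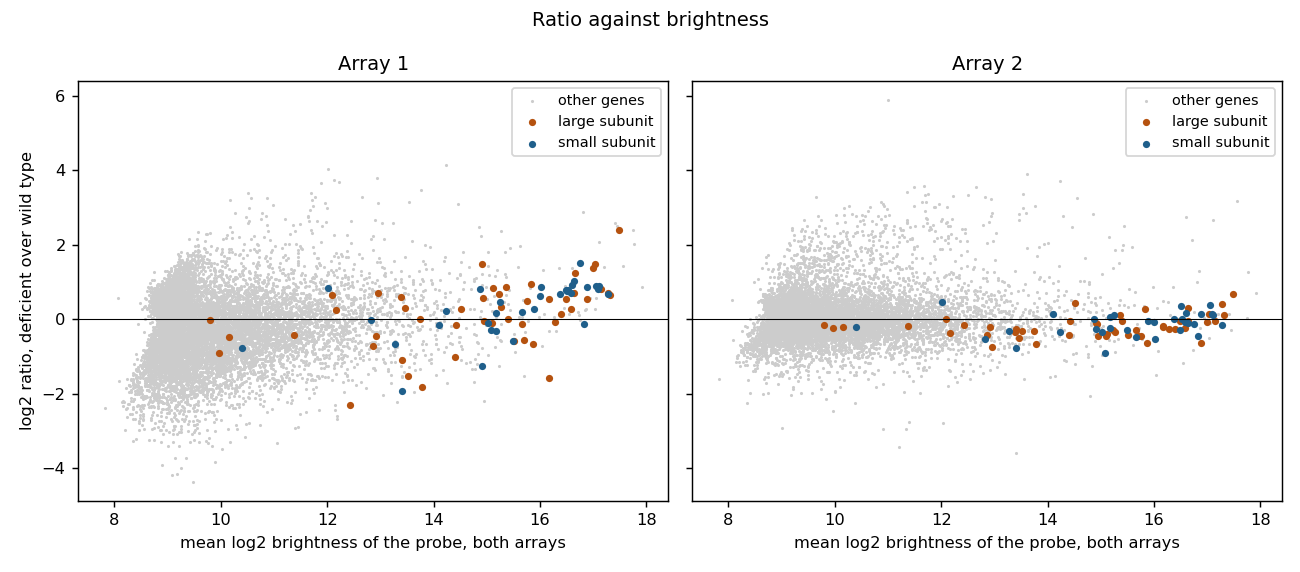
Log2 ratio of deficient over wild type (y axis, loess) against mean log2 brightness of the probe over both arrays (x axis) on array 1 (left) and array 2 (right), for large (orange) and small (blue) subunit genes and all other genes tested (grey). The members lie at the bright end, and their ratios follow brightness with a Spearman correlation of 0.63 on array 1 and 0.38 on array 2; with median centring in place of loess 81 of 82 mean ratios are below 0.

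Probes for the same gene often gave different ratios. There were 26 genes with at least 2 probes well above background in both colours on both arrays, 61 probes in all. The brightest probe had a higher mean ratio than the dimmest in 18 of the 26 genes, in 21 on array 1 and in 17 on array 2. The probes of a gene spanned a median of 0.47 and more than 1 in 6 genes. In 11 genes the probes differed in the sign of the mean: Rps19, Rps3, Rps2, Rps18, Rpl7a, Rps3a, Rps21, Rpl23a, Rpl11, Rpl22l1 and Rpl13. In Rps13 and Rps20, 2 further genes, the probe of opposite sign did not exceed background clearly in every deficient sample.

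Rps19, the gene most often mutated in Diamond-Blackfan anaemia, spanned the most. Its brightest probe (AK012052, chr7:24597691-24597750, mm8) gave 0.86 and -0.52, with a mean of 0.17, while a dimmer one (NM_023133, chr7:24593610-24593935) gave -1.36 and -1.54, with a mean of -1.45. The dimmer probe was lower on both arrays, whereas the brighter one changed sign. Rps3, which lines the path where messenger RNA enters, had 0.91 and 0.17 at its bright probe and -1.29 and -0.44 at a dimmer one. Rps2, a protein of the same entry site, had 0.89 and 0.39 at one probe and -0.96 and -0.17 at another. Rpl29 and Rps3a ran the other way, with the brightest probe lowest, -0.77 for Rps3a against 0.04 at its other probe. For these genes the sign or the size of the ratio depended on the probe.

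**Figure D5:**
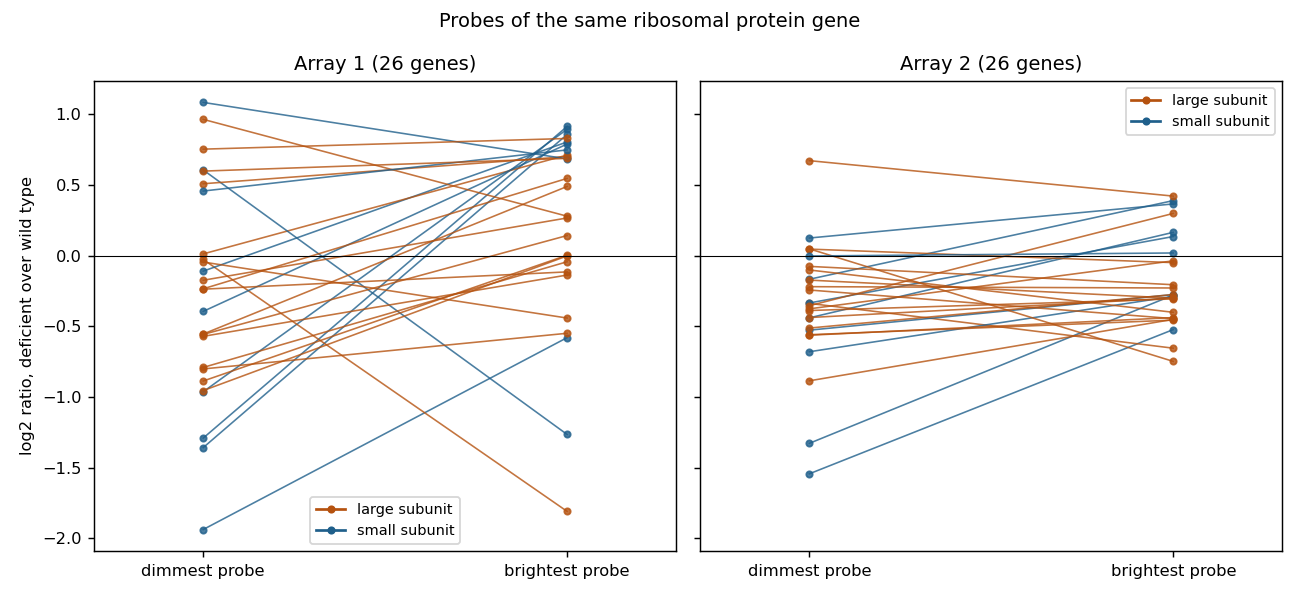
Log2 ratio of deficient over wild type (y axis, loess) of the dimmest and brightest probe (x axis) of the 26 genes with several probes above background, 1 line per gene, for array 1 (left) and array 2 (right), large subunit in orange and small in blue. On array 1 the brightest probe is the higher in 21 of 26 genes and on array 2 in 17.

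In the large subunit the lowest genes after Rpl29 and Rpl4 were Rplp0, Rpl5, Rpl13a and Rpl3, none of them called. With both colours required, which left fewer genes in the adjustment, Rplp0 and Rpl5 passed as lower (limma adjusted p = 0.0332 and 0.0455), and over all alternatives their adjusted p ran from 0.0203 to 0.291 and from 0.0157 to 0.381. Rplp0, the base of the stalk, had -1.52 and -0.32, with a mean of -0.92 ± 0.85 (SD, n = 2). It was printed in 10 spots per array, of which 8 and 9 were used, and their ratios had an SD of 0.068 and 0.047 within the arrays, far less than the gap between the arrays. Rpl5 carries 5S ribosomal RNA and with Rpl11 binds Mdm2, the main inhibitor of p53. It had -1.57 and -0.19, a mean of -0.88 ± 0.98 (SD, n = 2), and scanned signals of 19455 and 110560 on array 1 and 126025 and 113160 on array 2. Its partner Rpl11 had 0.55 and -0.04 at the brightest probe and a mean of 0.26 ± 0.41 (SD, n = 2), and -0.23 and -0.38 at its other probe, so that whether the pair shared a sign depended on the probe. Rpl13a, known for silencing the translation of inflammatory messages in myeloid cells, had -1.01 and -0.42. Rpl3, close to the site where peptide bonds form, had -1.08 and -0.25. Rpl8, another protein near that site, had -0.67 and -0.64, the same value on both arrays within 0.03.

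At the upper end of the large subunit, after Rpl37a, came Rplp1, Rpl39, Rpl38, Rpl26 and Rpl41. Rplp1, which forms the outer stalk with Rplp2, had 1.47 and 0.14, with a mean of 0.81 ± 0.94 (SD, n = 2; limma adjusted p not past the threshold). Rplp2 had 0.80 and -0.06. The stalk thus held one low and 2 high ratios on array 1, Rplp0 at -1.52 against 1.47 and 0.80, and all 3 lay between -0.32 and 0.14 on array 2. Rpl39, a very small protein at the exit tunnel, had 1.48 and -0.09. Rpl38, whose loss in Tail-short mice changes the translation of Hox messages, had 1.38 and -0.06. Rpl41, the smallest ribosomal protein, had 1.23 and -0.03, and Rpl26, which lies near the exit of the tunnel, had 0.95 and 0.28. These genes were high on array 1 and near 0 on array 2, and none was called.

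Rpl22 is needed for the development of alpha-beta T cells, and its paralog Rpl22l1 can take its place in the ribosome. Rpl22 had ratios of -0.00 and -0.05, and Rpl22l1 had 0.70 and -0.75 at its brightest probe and 0.51 and 0.05 at the other. Rpl36al had -0.72 and -0.42 beside 0.83 and -0.40 for Rpl36a. Rpl7l1 had -0.90 and -0.24 beside -0.14 and -0.30 for Rpl7. Rps27l, a paralog that p53 can induce, had 0.83 and 0.47 beside 1.02 and -0.09 for Rps27. None of the 4 measured paralogs was called, and limma gave none of them an unadjusted p under 0.05.

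In the small subunit the lowest genes after Rpsa included Rps3a, Rps15a, Rps19bp1 and Rps6. Rps3a, on the solvent side of the small subunit, had -1.27 and -0.28. Rps15a, a core protein bound to 18S RNA, had -0.30 and -0.90 and was one of the genes lower on array 2 than on array 1. Rps19bp1, which binds Rps19, had -0.78 and -0.21. Rps6, the substrate of the S6 kinases downstream of mTOR, had -0.66 and -0.33, with a mean of -0.49 ± 0.23 (SD, n = 2). The values for Rps6 were below 0 on both arrays and within the range that limma did not call. Rps14, the small subunit gene lost in the human 5q deletion syndrome, had -0.14 and -0.46.

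The highest small subunit genes included Rps13, Rps27l, Rps2, Rps3 and Rps20. Rps13 had 1.50 and -0.13, with a mean of 0.68 ± 1.15 (SD, n = 2), the widest gap between arrays in its subunit. Rps20 had 0.87 and 0.15. These genes lay above 0 on array 1, and their values on array 2 were between -0.13 and 0.47. None was called, and with loess no gene with a small subunit name rose (limma). Among genes so named, Rpsa alone had an unadjusted p under 0.05 (limma).

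Ribosomal proteins that carry other names were listed apart. Rps27a, made as a fusion with ubiquitin, had 0.82 and 0.01. Rack1, a scaffold on the small subunit, had 0.88 and -0.08. Fau, which encodes a small subunit protein fused to a ubiquitin-like one, rose, with 2.02 and 1.27 and a mean of 1.64 ± 0.53 (SD, n = 2; limma adjusted p = 0.00273). It kept its sign and passed in 6 of the 11 alternatives (adjusted p 2.3e-05 to 0.554).

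Genes that act with the ribosomal proteins were set beside them. Of 20 measured genes with other TOP messages, mostly translation factors, none was called, beside 9.58% of all genes (limma). An unadjusted p under 0.05 was reached by 2 of the 20, beside 2177 of all 9955 genes (limma). Those below 0 numbered 16 (80%), beside 56.5% of all genes, with a median of -0.20, beside -0.12. Median centring gave 3 lower calls, beside 3.53% of all genes called lower, and a median of -1.02, beside -0.40. The largest were Tpt1 (-1.19 and -0.72), which encodes the translationally controlled tumour protein, the nucleolar chaperone Npm1 (-1.32 and -0.42) and the elongation factor Eef2 (-2.21 and 0.70). Of 42 measured ribosome biogenesis genes 3 fell (7.14%, beside 5.94% of all genes) and none rose (limma, adjusted p under 0.05), with 34 (81.0%) below 0, beside 56.5% of all genes, and a median of -0.35, beside -0.12. Of the 42, 11 did not exceed background clearly in a deficient sample and passed the filter through wild type, which favours low ratios. With both colours required, 30 remained, 23 of them below 0, with a median of -0.26, beside 0.06 for all genes. With median centring 4 fell and the median was -0.75, beside -0.40, and the Feature Extraction ratios gave no call and a median of -0.60. Ncl, the nucleolar protein nucleolin, had -2.67 and -0.12, with a mean of -1.40 ± 1.81 (SD, n = 2; limma adjusted p = 0.0153), so that its call rested on array 1. Nop58, a core protein of box C/D particles, had -1.82 and -1.01 (limma adjusted p = 0.0133) and was above background in deficient cells on 1 of the 2 arrays. Utp20, a small subunit processome protein, did not exceed background clearly in the deficient samples of either array and was at least 1.45-fold higher in wild type (limma adjusted p = 0.0012). This bound sets the mean normalized wild-type signal against the lowest deficient signal well above background, and is open to dye bias.

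Among 15 measured regulators of ribosomal protein synthesis, Myc fell and the others were not called. This put 6.67% of the list lower, beside 5.94% of all genes. Myc had -1.72 and -1.42, with a mean of -1.57 ± 0.21 (SD, n = 2; limma adjusted p = 0.00477), and was low on both arrays. It passed in 6 of 11 alternatives (adjusted p 4.7e-05 to 0.24), with means from -2.15 to -0.83. The next were Larp4, which binds poly(A) tails (-1.64, with deficient RNA not clearly above background on that array, and -0.34), and Eif4ebp1, a translation repressor that mTOR switches off (1.05 and 0.88). Larp1, the protein that binds TOP motifs, had -0.71 and -0.32. The median of the 15 genes was -0.52, beside -0.12 for all genes, and -0.81 with median centring, beside -0.40. In 6 of the 15 deficient RNA did not exceed background clearly on an array. Those 6 passed the filter through wild type, which favours low ratios. The 9 measured in both colours had a median of -0.36, beside 0.06 for all genes. With both colours required, 1 of the 9 was called higher and 1 lower (limma), beside 13.3% of all genes in either direction.

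Ratios were also set beside the letters at the promoters, with no test. The 24 measured genes with CCGGAAG had median ratios of 0.51 and -0.12 and the 37 without it 0.25 and -0.21. Genes with a pyrimidine run that began within 10 bases of the start (36 measured) had 0.28 and -0.21, and the 25 without had 0.28 and -0.16. The genes lie on 19 chromosomes, with 14 of them on chromosome 7.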

How the data were processed

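RNA of 2 deficient and 2 wild-type samples was compared on 2 two-colour Agilent arrays. Per the file headers, the deposited scanner files hold the mean intensity and background intensity of each spot, made with Agilent Feature Extraction 9.5.3.1, and a log10 ratio of red over green after that program's background and dye correction. The deposited value table holds the same log10 ratio, to within 0.005 of the scanner files. Depth has no counterpart here, and the number of arrays limits the precision. Probe coordinates are those of the files (NCBI36, mm8). Names came from accessions or symbols in a RefSeq table (GRCm38.p6), which held 82 of the 83 member symbols.

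Background was corrected with normexp (offset 50) and ratios were normalized by loess within arrays, with control spots at weight 0. Outlier-marked spots (255 and 195, of which 2 and 1 of members, all Rplp0) were left out. Probes with 1 colour well above background on both arrays were kept (12647), and the brightest stood for its gene. Tests of the mean log2 ratio against 0 used limma 3.58.1 (R 4.3.3; statmod 1.5.0 for separate channels), two-sided, with Benjamini-Hochberg adjustment over 9955 genes. In 20 simulated draws with 200 changed genes, 12.1% of those changed by 1 (log2) and 88.0% of those changed by 2 were recovered, and 4.08% of calls were false.

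Members and gene lists were chosen with earlier results of these data known. Named genes are Bcl11b, every called member, the 6 lowest and highest per subunit, the stalk, a fixed set of well-studied members, paralogs beside parents, members with probes of opposite sign, and from each list the called genes or otherwise the 3 with the largest mean ratio; Rps9, Rps10, Rpl15, Rpl8 and Larp1 were added after their values were seen. A few genes that the rule names are not reported here. Alternatives were median centring in place of loess, centring on the genes tested, raw background, a smaller normexp offset (16), the ratios of Feature Extraction, the deposited table, no filter, a filter on both colours, the mean of a gene's probes, separate channels, single arrays, the standard proteins alone and, chosen after seeing the data, loess without ribosomal protein spots and members of middle brightness.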

Additional observations from a re-analysis of the deposited data

How the results depend on the processing

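The count of members called lower, 3, became 0 with the Feature Extraction ratios, the authors' table, no filter and separate channels, 1 with a normexp offset of 16, 5 with both colours above background and 8 with median centring. The count called higher, 1, became 0 with the Feature Extraction ratios, no background correction, median centring, the deposited table, no filter and separate channels. With both colours required 7.32% of members were called in either direction, beside 13.3% of all genes. By limma, members with an unadjusted p under 0.05 then numbered 2 (Feature Extraction, table), 13 (no filter), 4 (separate channels), 22 (no background correction) and 34 (median centring), against 6. Over all genes the same counts were 2247 (Feature Extraction), 2235 (table), 5115 of 27596 (no filter), 2009, 2364 and 1965, against 2177, of 9955 genes except without the filter. No filter brought 27596 genes into the adjustment, and other causes were not tested. The medians moved past their spread with median centring alone, to -0.93 for all members, -1.02 for the large and -0.83 for the small subunit, and over single arrays they ran from -0.20 to 0.29, -0.23 to 0.27 and -0.09 to 0.62. The large minus small difference was -0.11 with the Feature Extraction ratios, the table and the mean of a gene's probes, 0.051 among members of brightness 14 to 16 (chosen after seeing the data, as was 14 to 17, with -0.22), and -0.35 to -0.14 over single arrays. It was negative in 14 of the 15 alternatives run, though centring on the genes tested and the filter on both colours could not change it. A single array leaves no residual degree of freedom, so no test was made without either. No paired analysis was possible because each array already pairs the genotypes and the arrays form 1 group of ratios. Brightness over background did not limit the members, and the 2 arrays in 1 dye orientation did.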
